A study of Homo sapiens with 6 samples.

Results

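The cGAS-STING and RIG-I nucleic acid sensing genes are described here through 10 members, CGAS, IFI16, TREX1, STING1, RIGI (formerly DDX58), IFIH1, DHX58, MAVS, TBK1 and IRF3. They were chosen by name, for their roles in the pathway, out of 63677 gene identifiers in the count table, and all 10 were found there. RNA was sequenced from UWB1.289 cells, a human ovarian cancer cell line that lacks functional BRCA1, although the sample labels give its genotype as WT. Dishes received 4 µM Olaparib, an inhibitor of poly(ADP-ribose) polymerases, or DMSO, its vehicle, and were collected after 24 h, with 3 samples per condition. The sample titles and the study's methods both give 4 µM, whereas the series' design text gives the concentration as 10 µM. Why the design text differs is not stated. All 6 samples come from this 1 cell line, with no BRCA1-restored line beside them.

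Cells read DNA in the cytosol as a danger signal. The enzyme cGAS binds double-stranded DNA and makes the cyclic dinucleotide cGAMP, which activates STING on the endoplasmic reticulum, and STING then recruits the kinase TBK1 to phosphorylate the transcription factor IRF3. Double-stranded or 5′-triphosphorylated RNA is read by the RIG-I-like receptors, which signal through MAVS on mitochondria to the same kinase and the same factor, and IRF3 switches on interferon beta and a set of antiviral genes. PARP inhibitors are known to raise cytosolic DNA in BRCA1-deficient tumour cells.

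Each library held 35360458 to 39640775 counts, with normalization factors (edgeR's TMM) of 0.995 to 1.01. Values per sample are normalized counts, that is, counts scaled to a common library size, and are given in the order of replicates 1, 2 and 3. A difference between Olaparib and DMSO is a log2 fold change with its standard error (SE) from edgeR's quasi-likelihood test, and a gene passed at a Benjamini-Hochberg adjusted p under 0.05 over the 21729 genes with more than 10 counts in total. Genes were called differentially expressed where the absolute log2 fold change was also above log2(1.2). The epithelial markers KRT7, KRT8, KRT18 and EPCAM and the Müllerian factor PAX8 were strongly detected, and of the 7 ovarian and epithelial markers tested PAX8 passed, with a log2 fold change of 0.10 (adjusted p = 0.0399, edgeR). When 1 library was left out, PAX8 passed without replicate 1 of Olaparib (adjusted p = 0.0301) and lost its call without any of the other 5 (adjusted p of 0.0726 to 0.202). MUC16 had 1505 to 1902 counts per sample and CALB2 31 to 40, fewer than KRT7, KRT8, KRT18, EPCAM or PAX8. WT1 had 0 to 2 counts per sample, and none of the 6 immune cell markers tested passed. Among the immune markers, PTPRC had the most counts, 53 to 75 per sample, followed by CD14 with 33 to 55. In bulk RNA of this kind, fewer cells of a type and less RNA per cell cannot be told apart.

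Of the 10 sensing genes, IFIH1 was higher after Olaparib, none was lower, and 9 did not pass the test. IFIH1, which encodes the long double-stranded RNA sensor MDA5, rose by 17.0%. The share of all genes tested that passed in the upward direction was 2.15%, and in the downward direction 1.21%. IFIH1 stayed under the fold threshold, so no member was called differentially expressed, while 0.723% of all genes tested were called as higher. The median log2 fold change was 0.0070 over the 10 members and 0.0030 without RIGI, beside -0.0042 over all genes tested. Of the 9 members above the floor of 3 counts per sample, 5 had a positive and 4 a negative log2 fold change.

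**Figure D1:**
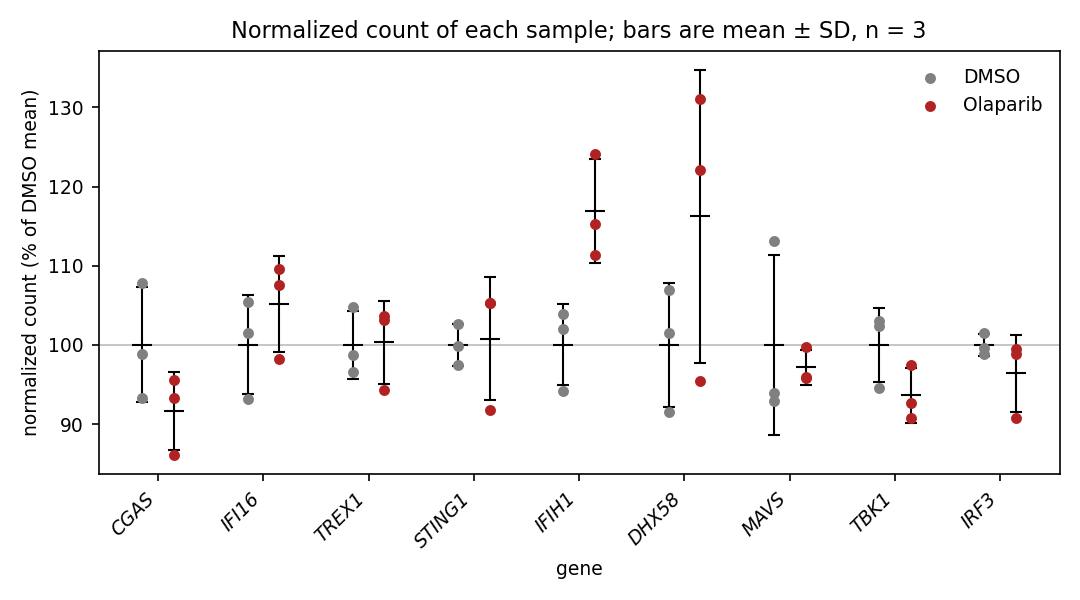
Normalized count of each sample as a percentage of the gene's DMSO mean for the 9 sensing genes above the floor, with grey points for DMSO, red points for Olaparib and black bars for the mean ± SD (n = 3 per group). The 3 Olaparib samples lie above the 3 DMSO samples for IFIH1, while the groups overlap for each of the other 8 genes.

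The levels of the 10 transcripts were first compared per length, as RPKM, the read count scaled by both library size and exonic length. In DMSO, IRF3 was the highest with 28.6 ± 0.395 RPKM (SD, n = 3), followed by CGAS with 12.6 ± 0.916 RPKM and IFI16 with 7.81 ± 0.489 RPKM. These first places in the order were separated by more than the spread between samples. IFIH1 with 6.57 ± 0.337 RPKM and MAVS with 6.20 ± 0.708 RPKM did not differ beyond that spread. TREX1 followed with 4.46 ± 0.191 RPKM, STING1 with 3.84 ± 0.100 RPKM and TBK1 with 2.72 ± 0.128 RPKM. Values were far lower for the remaining RIG-I-like receptors, with 0.711 ± 0.0560 RPKM for DHX58 and 0.00602 ± 0.00180 RPKM for RIGI. Whether the few counts of RIGI reflect the level of its transcript was not tested. Among all genes tested that had a length, the members therefore ran from percentile 92.2 for IRF3 to percentile 0.398 for RIGI. The order in the middle depended on the transcript length used. With the length of the Ensembl canonical transcript, an alternative added after the data were seen, TBK1 had 13.3 RPKM in DMSO and stood between IFI16 with 14.3 RPKM and IFIH1 with 9.59 RPKM. IRF3 and CGAS stayed in the first places and DHX58 and RIGI in the last.

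**Figure D2:**
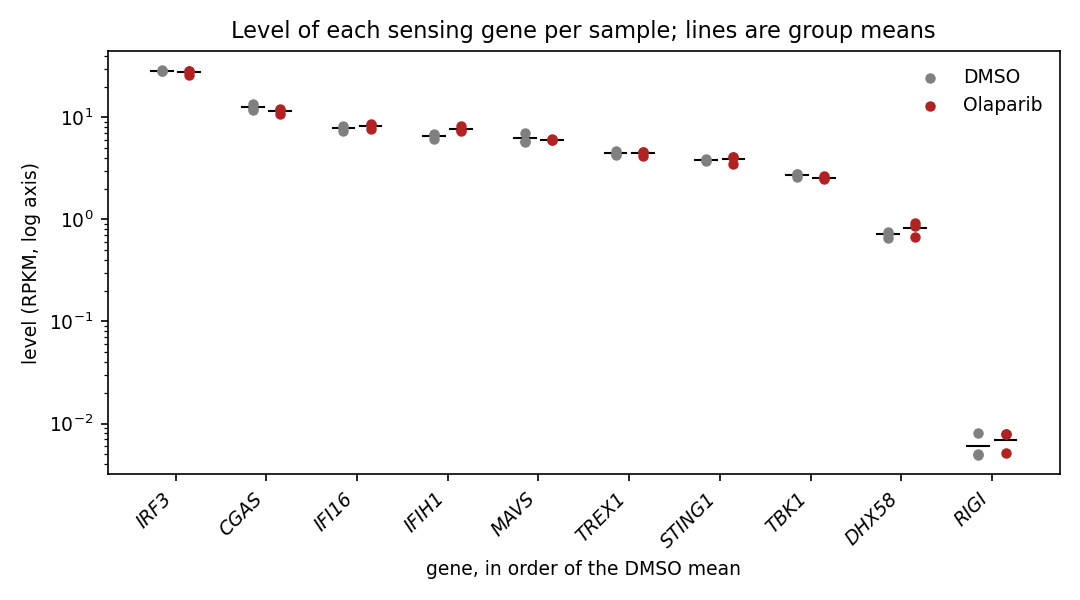
Level of each sensing gene in each sample in RPKM on a log axis, with grey points for DMSO, red points for Olaparib and black lines for group means, in the order of the DMSO mean. IRF3 sits near 28.6 RPKM in DMSO, most members lie between 2.72 and 12.6 RPKM, and RIGI lies far under the rest at 0.00602 RPKM.

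The DNA-sensing arm was measured through its sensors, its exonuclease and its adaptor. CGAS (ENSG00000164430, chr6:73413515-73452297 on GRCh38, minus strand), the cytosolic DNA sensor, had 1882, 1693 and 1835 normalized counts in the Olaparib samples and 2120, 1837 and 1946 in DMSO. The Olaparib samples were mostly lower, but replicate 1 of Olaparib lay above replicate 2 of DMSO, so the groups overlapped. The log2 fold change was -0.13 (SE 0.05, 95% interval -0.22 to -0.03), with an unadjusted p of 0.0132 and an adjusted p of 0.170 in edgeR's quasi-likelihood test, Benjamini-Hochberg adjusted. CGAS therefore did not pass. At an unadjusted p under 0.05, CGAS and TBK1 were among the lower genes, a class that held 6.97% of all genes tested, and IFIH1 was among the higher genes, a class that held 7.83%. A small part of the exonic bases of CGAS, 4.31%, is shared with DDX43 on the opposite strand, and the strand setting used for counting is not stated.

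IFI16 (ENSG00000163565, chr1:158999968-159055155, plus strand), an interferon-inducible DNA-binding protein that cooperates with STING, had 1521, 1698 and 1665 normalized counts in the Olaparib samples and 1632, 1442 and 1571 in DMSO. The means were 1628 ± 93.8 and 1548 ± 96.8 (SD, n = 3), and the groups overlapped. Its log2 fold change was 0.07 (SE 0.05, 95% interval -0.03 to 0.17), with an adjusted p of 0.527 in the edgeR fit.

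TREX1 (ENSG00000213689, chr3:48465811-48467645, plus strand), the 3′ exonuclease that clears cytosolic DNA and so limits cGAS, had 249, 250.3 and 228 normalized counts in the Olaparib samples and 233, 238 and 253 in DMSO. The samples of both conditions were interleaved. The log2 fold change was 0.0030 with a 95% interval of -0.16 to 0.17, which lies inside the fold threshold on both sides. Every exonic base of TREX1 (100%) is also annotated to ATRIP on the same strand, so reads of these genes could not be separated and the TREX1 value is uncertain.

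STING1 (ENSG00000184584, chr5:139475533-139482935, minus strand), the adaptor that binds cGAMP, had 633, 725 and 726 normalized counts in the Olaparib samples and 671, 688 and 707 in DMSO. Replicate 1 of Olaparib was the lowest of the 6 samples and replicates 2 and 3 were the highest. The log2 fold change was 0.01 (SE 0.05, 95% interval -0.10 to 0.12), with an adjusted p of 0.953 in the edgeR fit.

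On the RNA-sensing side, the 3 RIG-I-like receptors had very different counts. IFIH1 (ENSG00000115267, chr2:162267074-162318684, minus strand) had 1431, 1482 and 1596 normalized counts in the Olaparib samples and 1335, 1211 and 1311 in DMSO. All 3 Olaparib samples were above all 3 DMSO samples, which held for 10.0% of all genes tested, whereas no member had all Olaparib samples below, which held for 9.29%. The means were 1503 ± 84.6 and 1286 ± 65.8 (SD, n = 3). IFIH1 rose by 0.23 on the log2 scale (SE 0.05, 95% interval 0.13 to 0.32), with an adjusted p of 0.00376 in edgeR's quasi-likelihood test, Benjamini-Hochberg adjusted. The corresponding fold was 1.17, with an interval of 1.09 to 1.25. The call rested on single libraries: without replicate 3 of Olaparib the log2 fold change was 0.18 and the adjusted p 0.0850, and without replicate 2 of DMSO they were 0.18 and 0.0565, both from the same edgeR test.

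**Figure D3:**
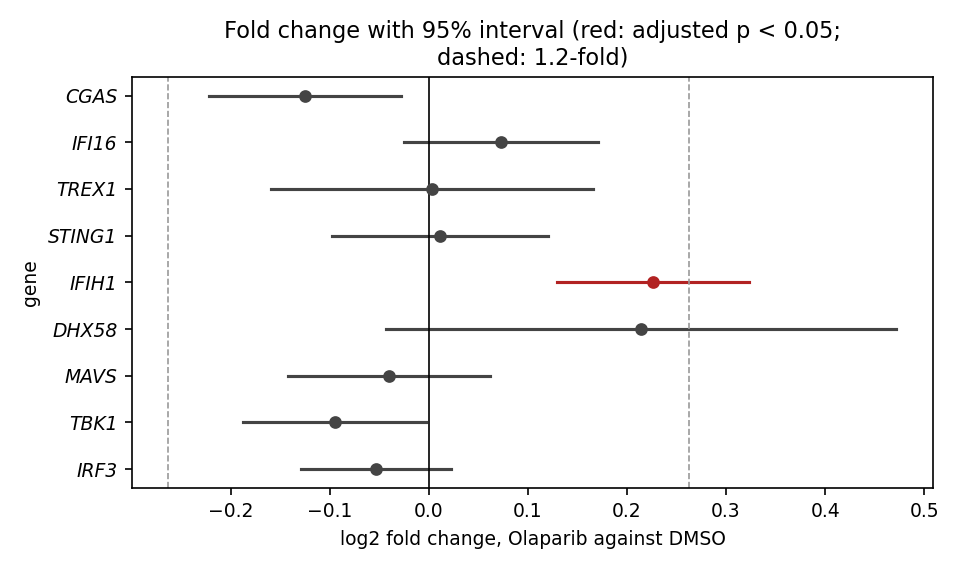
Log2 fold change of Olaparib against DMSO for the 9 sensing genes above the floor, with points for the estimates and lines for 95% intervals, red where the adjusted p was under 0.05 and grey otherwise, and dashed lines at a fold of 1.2. The interval of IFIH1, 0.13 to 0.32, lies above 0 and crosses the upper dashed line, and the interval of DHX58, -0.04 to 0.47, is the widest.

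RIGI (ENSG00000107201, chr9:32455302-32526208, minus strand), which encodes the RIG-I sensor of short 5′-triphosphorylated RNA, was almost without reads. It had 3, 3 and 2 counts after Olaparib and 3, 2 and 2 in DMSO, which makes 15 counts in all 6 libraries. Both conditions were at the floor of 3 counts, and no fold change is given. At this depth a difference between the conditions was not detectable. The nearest genes on either side were well covered, a comparison chosen after the values of RIGI had been seen. ACO1, which encodes cytosolic aconitase and ends 533 bases from RIGI, had 1316 to 1540 counts per sample. TOPORS, which encodes a ubiquitin and SUMO ligase and lies 14336 bases away on the other side, had 1057 to 1177 counts. Further along, SMIM27 had 58 to 73 counts and NDUFB6, a subunit of respiratory complex I, had 1196 to 1423. Farther out the genes were not all covered: TAF1L, 103246 bases away, and TMEM215, 257332 bases away, were listed at 0 in all 6 samples, as was IFNK on the other side, and LINGO2 had 47 to 76 counts. Of the 5 genes listed on each side, the nearest, ACO1 and TOPORS, were both well covered. None of the exonic bases of RIGI is shared with another gene in the GENCODE annotation that gave the exonic lengths. That annotation holds 81.9% of the counted identifiers, so it is not the annotation on which reads were counted. Whether overlap with other genes cost RIGI reads in the counting was not tested.

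**Figure D4:**
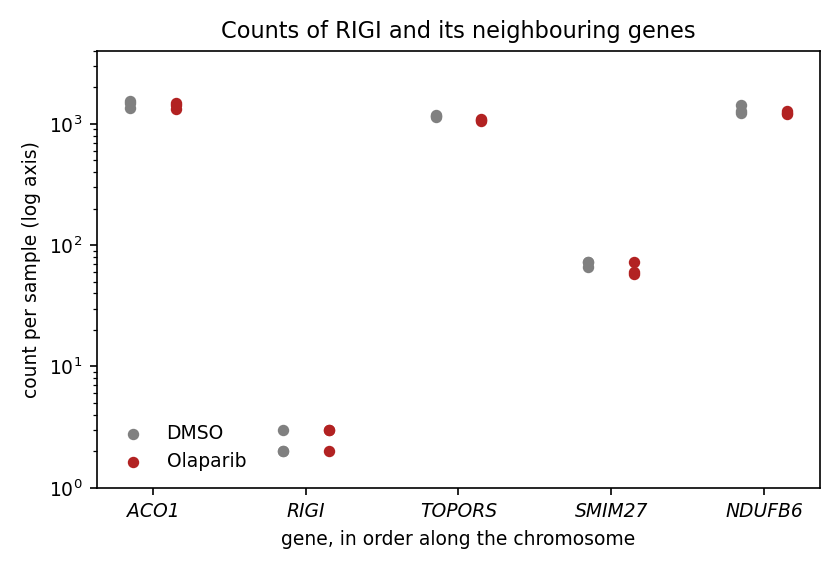
Counts per sample on a log axis for RIGI and 4 neighbouring genes in their order along the chromosome, with grey points for DMSO and red points for Olaparib. RIGI has 2 or 3 counts in every library, while ACO1 beside it has 1316 to 1540.

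DHX58 (ENSG00000108771, chr17:42101404-42112714, minus strand) encodes LGP2, the RIG-I-like receptor without signalling domains that modulates the others. It had 97.2, 133 and 124 normalized counts in the Olaparib samples and 93.1, 109 and 103 in DMSO. Replicates 2 and 3 of Olaparib were the highest samples, and replicate 1 lay within the DMSO range. The log2 fold change was 0.21 (SE 0.13, 95% interval -0.04 to 0.47), with an adjusted p of 0.460 in the edgeR fit. The estimate was close to that of IFIH1 with a wider interval and far fewer counts, and DHX58 did not pass.

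MAVS (ENSG00000088888, chr20:3846799-3876123, plus strand), the mitochondrial adaptor of both RNA sensors, had 2619, 2726 and 2623 normalized counts in the Olaparib samples and 3094, 2566 and 2542 in DMSO. Replicate 1 of DMSO stood above the other 5 samples. The log2 fold change was -0.04 (SE 0.05, 95% interval -0.14 to 0.06), with an adjusted p of 0.781 in the edgeR fit. Without replicate 1 of DMSO, the direction turned and the log2 fold change was 0.06.

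The kinase and the factor on which both arms converge were also measured. TBK1 (ENSG00000183735, chr12:64452090-64502114, plus strand), the kinase that phosphorylates STING, MAVS and IRF3, had 1462, 1390 and 1361 normalized counts in the Olaparib samples and 1544, 1419 and 1537 in DMSO. The Olaparib samples were lower on average, with an overlap between replicate 1 of Olaparib and replicate 2 of DMSO. The log2 fold change was -0.10 (SE 0.05, 95% interval -0.19 to -0.0029), with an adjusted p of 0.313 in the edgeR fit. IRF3 (ENSG00000126456, chr19:49659569-49665875, minus strand), the transcription factor at the end of the cascade, had 3684, 4039 and 4014 normalized counts in the Olaparib samples and 4014, 4041 and 4122 in DMSO. Its log2 fold change was -0.05 (SE 0.04, 95% interval -0.13 to 0.02), with an adjusted p of 0.558 in the edgeR fit. IRF3 is activated by phosphorylation, which RNA counts do not measure. Of its exonic bases, 19.3% are shared with BCL2L12 on the opposite strand.

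The promoters were read next, because interferon-stimulated transcription often runs through a known element. The windows came from RefSeq (GRCh38.p14) and run from 250 bases before to 50 bases after the start of each gene. They covered 6 of the 10 members: IFI16, TREX1, RIGI, IFIH1, MAVS and TBK1. CGAS, STING1, IRF3 and DHX58 had no entry. The core of the interferon-stimulated response element (ISRE) was searched on both strands as GAAA, any 2 bases, GAAA, and the gamma-activated site (GAS) as TTC, any 3 bases, GAA. Of all 35116 windows of this length, 3.57% held the ISRE core and 7.66% the GAS. Of the 6 members, IFIH1 held the ISRE core and none held the GAS. IFIH1 had 3 matches, which begin 159, 153 and 21 bases before the start, and the first pair of them overlap. The 250 bases before the start are shown for IFIH1 as the member that passed, for RIGI as the member at the floor, and for DDX60 and IFIT1 as list genes described below that also rose. Capitals mark the matches to the ISRE core, and in DDX60 also 1 GAS that begins 124 bases before the start.
IFIH1, chr2:162318685-162318934, minus strand: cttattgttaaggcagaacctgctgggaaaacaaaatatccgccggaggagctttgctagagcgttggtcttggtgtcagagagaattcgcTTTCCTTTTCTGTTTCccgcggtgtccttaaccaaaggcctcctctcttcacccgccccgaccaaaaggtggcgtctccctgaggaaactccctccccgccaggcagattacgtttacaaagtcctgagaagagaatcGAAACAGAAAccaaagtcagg
RIGI, chr9:32526197-32526446, minus strand: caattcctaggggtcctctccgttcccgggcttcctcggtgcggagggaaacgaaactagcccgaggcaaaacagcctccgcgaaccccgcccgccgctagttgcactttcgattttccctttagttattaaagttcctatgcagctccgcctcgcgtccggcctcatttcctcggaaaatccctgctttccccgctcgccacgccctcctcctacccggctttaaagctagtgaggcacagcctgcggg
DDX60, chr4:168318753-168319002, minus strand: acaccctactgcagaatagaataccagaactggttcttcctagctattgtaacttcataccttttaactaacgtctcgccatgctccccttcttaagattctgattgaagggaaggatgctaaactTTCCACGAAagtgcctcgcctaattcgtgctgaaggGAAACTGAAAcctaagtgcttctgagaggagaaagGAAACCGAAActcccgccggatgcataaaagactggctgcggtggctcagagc
IFIT1, chr10:89392373-89392622, plus strand: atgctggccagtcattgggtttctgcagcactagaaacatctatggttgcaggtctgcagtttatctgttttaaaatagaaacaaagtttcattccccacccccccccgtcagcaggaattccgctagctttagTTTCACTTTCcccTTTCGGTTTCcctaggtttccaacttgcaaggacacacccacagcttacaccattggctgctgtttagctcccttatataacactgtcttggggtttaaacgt
DDX60 held the ISRE core at 88 and 53 bases before the start, and IFIT1 at 116 and 103. The match did not go with the test result in every list gene. RELA, RIPK1, LRRC8A, CXCL10 and ISG20 held the ISRE core and did not pass. AIM2, IFNL1, IFNL2 and IFNL3 also held it and had too few counts to be tested. SAMHD1, RNF26 and TANK passed, TANK as lower, and their windows held none. A match is a string in the reference and was not tested for binding, and its absence from the RIGI window says only that these letters are not there.

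The rest of the pathway was then taken from 5 lists of 82 genes, of which 73 could be tested. Of these 73, 10 were higher and 1 was lower after Olaparib at an adjusted p under 0.05, beside 2.15% and 1.21% of all genes. The higher genes were spread unevenly: 5 of the 10 tested readout genes of IRF3 and interferon passed, against 5 of the 63 tested genes in the other lists. The lists were chosen with earlier results of these data known, so this contrast is not separate evidence. The median log2 fold change was 0.58 for the readout genes and 0.64 without IFNB1, which was at the floor. It was 0.05 for the other DNA-sensing genes, 0.06 for genes of nucleic acid removal and editing, -0.0085 for other genes of RIG-I-like receptor signaling, and -0.0043 for shared kinases, adaptors and factors.

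**Figure D5:**
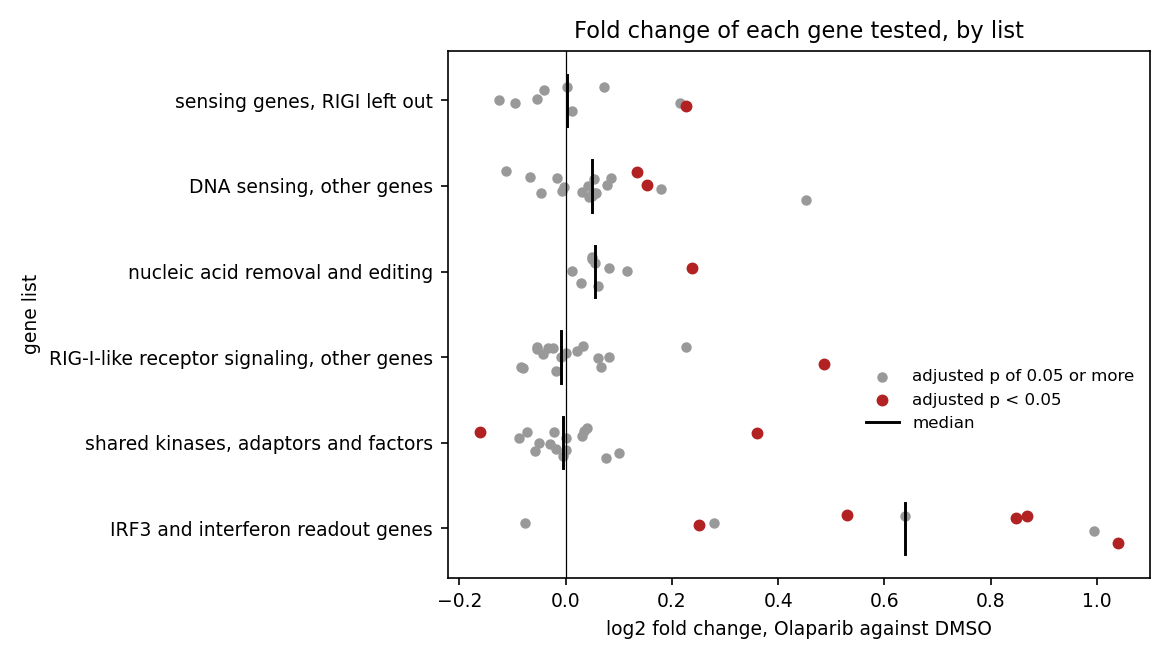
Log2 fold change of Olaparib against DMSO for each gene tested and above the floor, by list, with red points for an adjusted p under 0.05, grey points otherwise and black lines for medians. The sensing genes have a median of 0.0030 and the readout genes one of 0.64.

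Of the 20 tested genes in the DNA-sensing list, PRKDC and RNF26 were higher and none was lower. PRKDC, the catalytic subunit of DNA-PK, which binds DNA ends and has been described as a DNA sensor, rose by 0.15 on the log2 scale (adjusted p = 0.00319). RNF26, a ubiquitin ligase that acts on STING, rose by 0.13 (adjusted p = 0.0111, both from the edgeR fit). Neither reached the fold threshold. The call of PRKDC was lost without replicate 3 of DMSO (adjusted p = 0.0719) and that of RNF26 without replicate 1 of DMSO (adjusted p = 0.0742). AIM2, the inflammasome DNA sensor, had 1 count in all and NLRC3, an inhibitor of STING, had 3.

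Among the 9 genes that remove or edit nucleic acids, all had a positive log2 fold change, from 0.01 to 0.24, and SAMHD1 passed. The 95% interval included 0 for RNASEH2A, RNASEH2B, RNASEH2C, DNASE2, SKIC2 and PNPT1. It lay above 0 for ADAR and LSM11, which did not pass. SAMHD1, which hydrolyses dNTPs and limits the release of DNA from stalled forks, had 1528, 1688 and 1770 normalized counts in the Olaparib samples and 1429, 1372 and 1430 in DMSO. It rose by 0.24 on the log2 scale (adjusted p = 0.00201), and its call was lost without replicate 3 of Olaparib (adjusted p = 0.0565). The subunits of RNase H2, which removes ribonucleotides from DNA, did not pass: the log2 fold changes were 0.05 for RNASEH2A, 0.01 for RNASEH2B and 0.03 for RNASEH2C.

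In the list of RIG-I-like receptor signaling, 1 of 17 tested genes was higher and none was lower. This was DDX60, an interferon-inducible helicase reported to promote signalling by RIG-I-like receptors. It had 429, 425 and 500.0 normalized counts in the Olaparib samples and 323, 313 and 331 in DMSO, with all Olaparib samples above all DMSO samples. DDX60 rose by 0.49 on the log2 scale (SE 0.07), with an adjusted p of 1.52e-05 in the edgeR fit, and its adjusted p stayed under 0.05 when any 1 library was left out. It also exceeded the fold threshold, which IFIH1 did not.

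Among the 17 tested kinases, adaptors and factors shared by both arms, IRF7 was higher and TANK was lower. IRF7, the interferon-inducible relative of IRF3, had 694, 838 and 843 normalized counts in the Olaparib samples and 607, 588 and 654 in DMSO. It rose by 0.36 on the log2 scale (SE 0.06), with an adjusted p of 0.000190 in the edgeR fit, beside -0.05 for IRF3. TANK, a scaffold that binds TBK1, fell by 0.16 (log2 scale, adjusted p = 0.0171 in the edgeR fit), and its call was lost without replicate 2 of Olaparib, replicate 1 of DMSO or replicate 3 of DMSO (adjusted p = 0.0687, 0.0554 and 0.110).

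At the end of the pathway, IFNB1, which encodes interferon beta and is the classical direct target of IRF3, had 1, 1 and 3 counts after Olaparib and 1, 2 and 3 in DMSO. Both conditions were at the floor, and no difference was detectable at this depth. The lambda interferons IFNL1 and IFNL2 had 2 counts and 1 count in total. The readout genes CXCL11, CXCL10 and IFIT2 had log2 fold changes of 0.99, 0.64 and 0.28. They did not pass (adjusted p = 0.0888, 0.0642 and 0.0664, edgeR). ISG20, with a log2 fold change of -0.08, did not pass either. The readout genes that passed were IFIT1, IFIT3, OASL, RSAD2 and ISG15, antiviral effectors that respond to IRF3 and to interferon alike. IFIT1 had the largest log2 fold change among them, with 246, 392 and 440 normalized counts in the Olaparib samples and 186, 149 and 190 in DMSO, a rise of 1.04 (SE 0.13) with an adjusted p of 1.22e-06 in the edgeR fit. RSAD2, OASL, IFIT3 and ISG15 rose by 0.87, 0.85, 0.53 and 0.25 on the log2 scale. Replicate 1 of Olaparib was the lowest of its group for all of these genes, and for ISG15 it lay below replicates 1 and 3 of DMSO. The call of ISG15 was lost without replicate 2 or 3 of Olaparib or replicate 2 of DMSO (adjusted p = 0.109, 0.160 and 0.138) and with DESeq2 (adjusted p = 0.355), and that of RSAD2 was lost without replicate 3 of Olaparib or replicate 1 of DMSO (adjusted p = 0.0538 and 0.0666). In the readout list, 9 of the 11 genes with a promoter window held the ISRE core in at least 1 window, beside 1195 of all 27305 genes with a window. The list was made of genes known to respond to IRF3 or interferon, so a high share was largely built into the choice. The genes that held the core include IFNL1, IFNL2 and IFNL3, which were not tested, and CXCL10 and ISG20, which did not pass.

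The pattern of IFIH1 over the 6 samples was most like those of HERC5, RAB42, SP110, EPSTI1 and XAF1, by the Pearson correlation of log2 CPM among the 11996 genes whose mean count reached 100. The correlations were 0.993, 0.990, 0.985, 0.984 and 0.984, as a description over 6 libraries that share the treatment. HERC5, the ligase for ISG15, SP110, a nuclear body protein, EPSTI1 and XAF1 are known as interferon-inducible genes. Their log2 fold changes were 0.40 for HERC5, 0.32 for SP110, 0.37 for EPSTI1 and 0.85 for XAF1, all of which passed, and 0.32 for RAB42, a small GTPase, which did not (adjusted p = 0.142, edgeR). These genes were picked for following IFIH1, which differed between the groups, so a difference between the groups was largely built into the choice. The passes are therefore not separate evidence.

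Another 5 list genes, ZCCHC3, IKBKE, IKBKG, IFNL3 and CCL5, were listed at 0 in all 6 samples under their current identifier. Of the table's identifiers, 81.9% are in GENCODE release 44, so reads of these genes may stand under another identifier. IKBKG, a subunit of the kinase complex that activates NF-kB in nearly every cell type, is among them, and the value of 0 is not read as absence for any of the 5. IKBKE, the close relative of TBK1, therefore has no level here.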

How the data were processed

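Poly(A) RNA of 6 samples was measured, 3 with Olaparib and 3 with DMSO. The authors trimmed reads, mapped them to GRCh38 with STAR and assigned them to genes with featureCounts, and deposited raw counts for each gene, as whole numbers. Whether duplicates were removed and which strand setting was used are not stated. The rows of the table were matched to samples through the description in the labels. Replicates of a condition differed by more than sampling noise (chi-square per degree of freedom 1.81 to 4.11 over 15525 genes). The treatment protocol in the labels describes 3 dishes per condition without tying each sample to a dish, so p-values measure the spread between these samples. An exact permutation test of 3 against 3 samples cannot go below p = 0.1, so members were tested in the fit over all genes. Genes with more than 10 counts in total were normalized by TMM and tested with edgeR 4.0.16 (R 4.3.3), without a replicate block. The test was tried on simulated counts. DESeq2 1.42.0, limma voom 3.58.1, other scalings and filters, a replicate block and leaving out each sample were alternatives. RPKM used the union of exons of GENCODE release 44, from which the shared exonic bases were also taken.

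The members and lists were chosen with earlier results of these data known. Genes named are all members, up to 8 genes per list with the largest change among those that passed, list genes at or under 10 counts, IFNB1, IKBKE, IRF7, the RNase H2 subunits and SAMHD1, and the 5 genes most like the member with the largest absolute log2 fold change. Other list genes are named where their promoter match, interval or fold change is described. Libraries held 35360458 to 39640775 counts, and no fold was given for a gene with 3 counts or fewer in every sample. This floor covers counting error only.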

Additional observations from a re-analysis of the deposited data

How the results depend on the processing

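Over 9 members and 13 alternatives, 105 of 117 log2 fold changes kept their direction and their side of the threshold. Leaving out each sample turned the sign for STING1 (-0.022 to 0.074), TREX1 (-0.020 to 0.046) and MAVS (-0.091 to 0.061), and upper quartile factors gave -0.0060 for TREX1, none of which passed in any setting; the cause was not tested. Members that passed as higher numbered 0 to 1 when samples were left out, and 0 under the added fold threshold. List genes that passed as lower numbered 0 to 1 when samples were left out. Same-numbered samples did not deviate together (correlations -0.05, 0.08 and -0.05 over 16392 genes), and not every sample correlated best with its own number. With the replicate number as a block, 1322 genes passed against 730, 1 member was lower (CGAS, adjusted p = 0.0376, edgeR), and 2 list genes were lower. Leaving out a sample gave 389 to 864 genes in all. Depth limits RIGI and IFNB1, which were at the floor.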
